A study of Saccharomyces cerevisiae with 24 samples.

Results

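Domain VI is the last domain of yeast 25S ribosomal RNA, the large RNA of the 60S subunit. It was taken here as positions 2991 to 3396 of 25S, which are positions 6242 to 6647 of the RDN37 precursor transcript, with approximate bounds at its 5′ side and the mature 3′ end of 25S at its 3′ side. Its members were the A and C nucleotides of that stretch, chosen by position and base and not by any measured value. There were 177 of them, 100 A and 77 C, among 406 nucleotides, out of 3131 A and C in the whole of RDN37 and beside 1384 in the rest of 25S. RDN37 is transcribed from the repeated ribosomal DNA of chromosome XII. No genome build is named in the sources used here, so positions are given in RDN37 and 25S numbering alone.

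The study probed ribosomal RNA of Saccharomyces cerevisiae with dimethyl sulfate (DMS) and read it by mutational profiling, in 24 libraries that form 8 groups of 3 biological replicates. Pre-40S particles were purified through tagged Utp9 from cells with the Rrp5_mL form of the assembly factor Rrp5 (called mL here) or with wild-type Rrp5 (WT), and both carried H375A. Mature ribosomes came from BY4741 cells lacking the small nucleolar RNA genes snr31 and snr54 (called the deletion strain) or from BY4741 itself. Each of the 4 preparations was treated with 1% DMS for 5 min at 30 °C or left untreated. All cells were grown in rich YPD medium to mid-log phase. The sources used here give neither the meaning of mL nor the protein that H375A belongs to. The purification through Utp9 selects small-subunit precursors, so the 25S in the pre-40S libraries is co-purified RNA, and which large-subunit particles it came from is not given. The treatment protocol speaks of mature 40S, while the mature libraries held 25S at high depth.

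DMS adds a methyl group to the Watson-Crick edge of an A or C that is neither held in a base pair nor shielded by protein, and the reverse transcriptase TGIRT-III writes the methylated base as a mutation. The mutation rate of a nucleotide, in percent of the reads that cover it, is therefore a readout of how exposed that base was. Domain VI carries the sarcin-ricin loop, the most conserved stretch of the large subunit RNA, against which the translational GTPases dock on the ribosome. The plant toxin ricin removes the base of a single adenine there, A3027 in yeast, and the fungal toxin sarcin cuts the RNA beside it. The small nucleolar RNAs snR31 and snR54 guide modifications of 18S RNA and not of 25S. Rrp5 acts in the assembly of both subunits.

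The stretches that the results turn on are shown 5′ to 3′ as the deposited files give them. The sarcin-ricin loop is positions 3009 to 3046 of 25S (RDN37 6260 to 6297), with the 14 nucleotides of its core in capitals:
sarcin-ricin loop: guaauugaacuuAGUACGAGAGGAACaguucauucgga
The next 4 are centred on the sites with the highest rates in mature ribosomes, each with that base in capitals. They are 25S 3230 to 3260 (RDN37 6481 to 6511), 2991 to 3021 (6242 to 6272), 3321 to 3351 (6572 to 6602) and 3166 to 3196 (6417 to 6447):
A3245: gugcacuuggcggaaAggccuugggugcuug
A3006: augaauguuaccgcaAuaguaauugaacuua
A3336: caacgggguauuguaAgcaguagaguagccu
C3181: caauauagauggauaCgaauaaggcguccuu
The last 50 nucleotides of 25S, 3347 to 3396 (RDN37 6598 to 6647), have their last 5 A or C in capitals:
3′ end of 25S: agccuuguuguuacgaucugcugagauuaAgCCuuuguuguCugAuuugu

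Depth differed by far between the experiments. The median effective depth over the members was 52 to 605 per pre-40S library and 58249 to 163821 per mature library. The members held 14 to 1750 mutations per pre-40S library and 7468 to 364348 per mature library. An effective depth of at least 50 was met by 177 members in the 6 treated pre-40S libraries and by 96 in the 6 untreated ones, where untreated WT replicate 1 was the shallowest (median 52). A depth of at least 1000 was met by all 177 in the mature libraries. The median width of the exact 95% binomial interval was 2.74 percentage points in treated pre-40S libraries and 0.0986 points in treated mature libraries. Such intervals cover counting error alone. Untreated WT replicate 2 stood apart with 249088 mutations over RDN37, of which 374 fell on the members. Library pairs with enough members mutated in both were checked for identical values. None shared both count and depth at more than 2.56% of those members. Untreated WT replicate 1, with 14 member mutations, had too few for this check. Each library was counted as a sample.

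In DMS-treated mature ribosomes 3 of the 177 sites held a large share of the reactivity of domain VI. These were A3245, A3006 and A3336, picked as the 3 highest of BY4741. Together they took 9.28 ± 0.250% of the summed member rate in mL and 5.88 ± 1.21% in WT, but 30.4 ± 0.965% in the deletion strain and 31.2 ± 1.62% in BY4741 (SD, n = 3 each). The 3 highest of mL were A3336, A3006 and A3122, and those of WT were A3335, A3122 and A3344. The pre-40S shares are therefore not those of their own highest sites. The other member rates were low. The median over the A sites was 2.02 ± 0.211% in mL, 1.83 ± 0.688% in WT, 1.10 ± 0.0838% in the deletion strain and 0.811 ± 0.131% in BY4741. Over the C sites it was 0.342 ± 0.139% in mL, 0.381 ± 0.0453% in WT, 0.0925 ± 0.0116% in the deletion strain and 0.107 ± 0.0151% in BY4741.

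**Figure D1:**
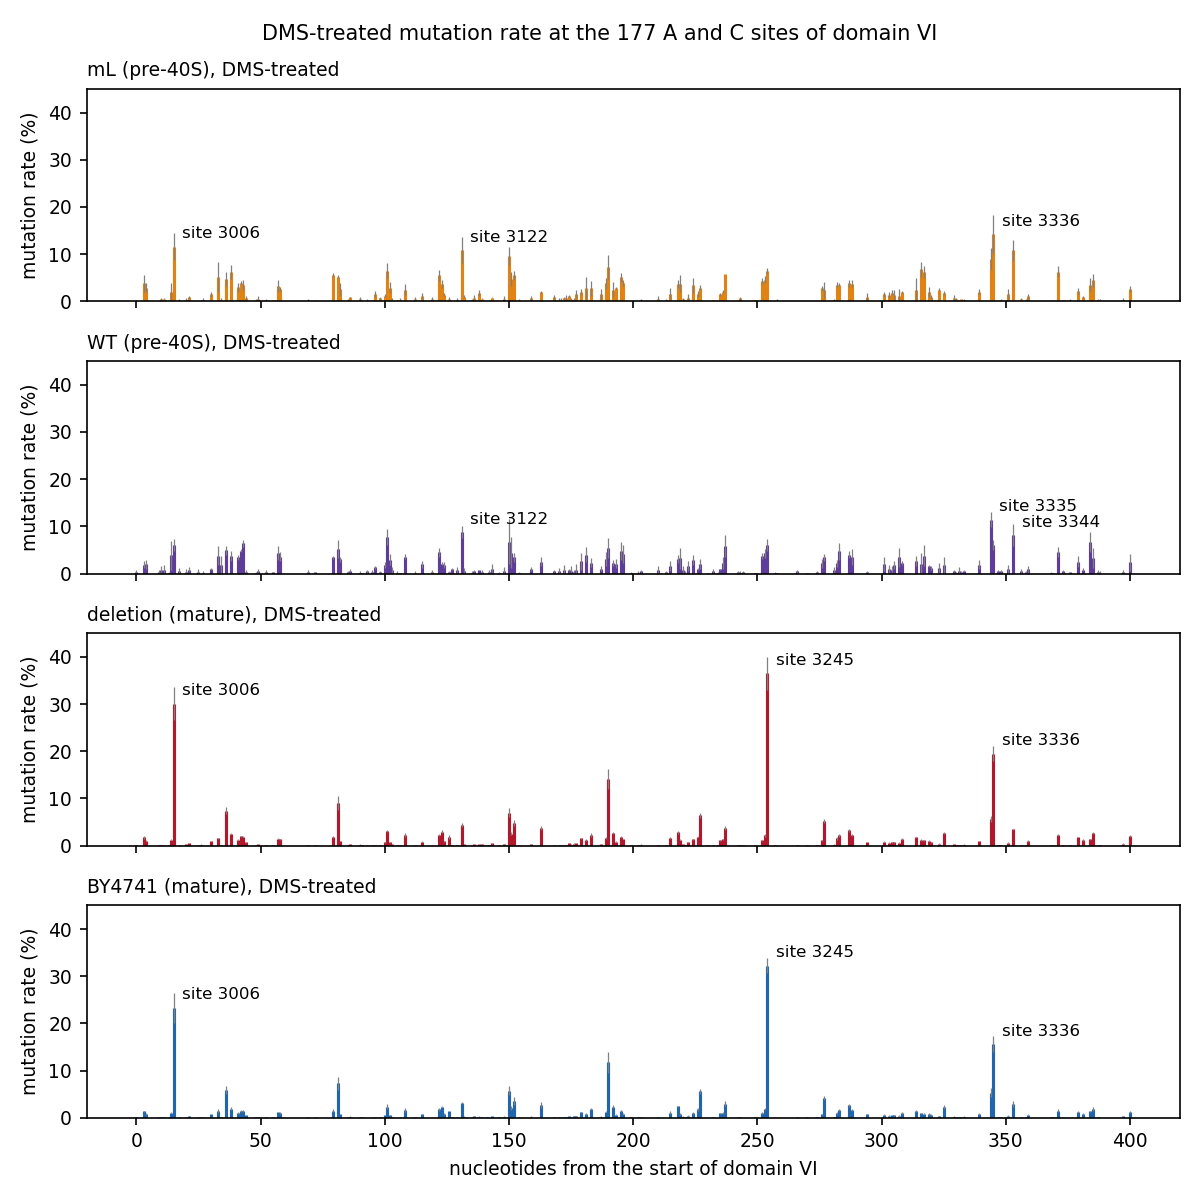
DMS-treated mutation rate in percent (vertical axis, mean with SD of 3 libraries) at each A and C of domain VI, against the distance in nucleotides from the start of the domain, for mL, WT, the deletion strain and BY4741. The 3 highest sites of each group are labelled by 25S position. In WT the highest site is A3335 at 11.4%, and in both mature strains the 3 highest are A3245, A3006 and A3336.

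A3245 was the highest member in mature ribosomes. In co-purified 25S its rate was 6.03, 6.07 and 7.22% in treated mL libraries and 4.64, 7.11 and 6.25% in treated WT libraries. In mature ribosomes it was 33.9, 40.4 and 35.2% in treated deletion libraries and 33.2, 30.4 and 33.1% in treated BY4741 libraries. Every mature library lay far above every pre-40S library, and the mL and WT libraries overlapped.

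A3006, near the 5′ border of the domain, read 14.7, 10.9 and 9.17% in mL against 6.51, 7.18 and 4.65% in WT. It read 27.1, 33.9 and 29.3% in the deletion strain against 23.9, 19.9 and 26.2% in BY4741. The raw rates of both pairs were higher in mL and in the deletion strain without overlap, and neither difference was called in the main fits given below.

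A3336, close to the 3′ end, read 10.7, 13.5 and 18.6% in mL against 5.15, 7.17 and 5.96% in WT. It read 18, 21.3 and 19.3% in the deletion strain against 15.8, 13.9 and 17.2% in BY4741. C3181, the highest C in mature ribosomes, stood at 7.34 ± 2.54% in mL and 5.41 ± 2.17% in WT. It was at 14.1 ± 2.12% in the deletion strain and 11.7 ± 2.30% in BY4741.

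The other sites among the 10 highest of BY4741 were C3072, A3027, A3141, A3218, A3335 and A3268, with means of 9.08 to 5.17% in the deletion strain and 7.33 to 4.15% in BY4741. The deletion strain had the same 10 sites in the same order. Of these 10, mL had 6 and WT had 5 among its own 10 highest. A3122 and A3344 were high in pre-40S preparations, at 10.9 ± 2.74% and 10.9 ± 2.23% in mL and at 8.81 ± 1.22% and 8.11 ± 2.32% in WT. The same sites gave 4.43 ± 0.454% and 3.49 ± 0.125% in the deletion strain and 3.12 ± 0.289% and 2.88 ± 0.669% in BY4741. These are raw rates, and the typical tested site of RDN37 was also higher in WT than in BY4741, by 1.37 on the log2 scale.

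**Figure D2:**
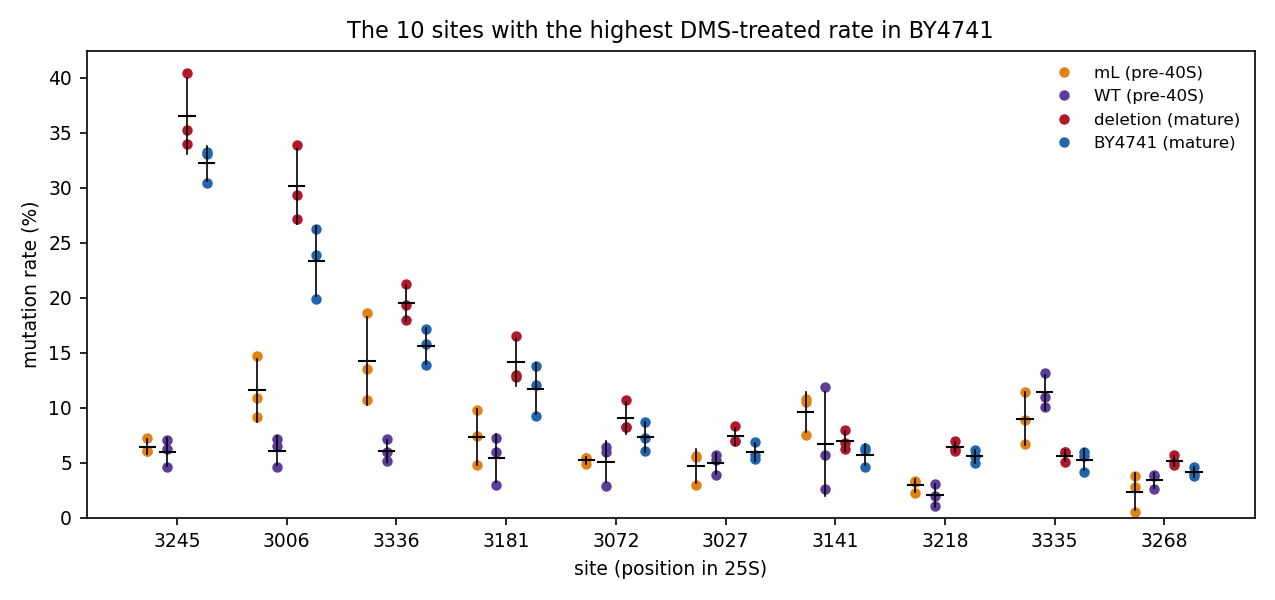
DMS-treated mutation rate in percent at the 10 highest sites of BY4741, labelled by 25S position. Points are libraries, horizontal bars the means and vertical lines the SD (n = 3), with mL and WT left of the deletion strain and BY4741. The gap between preparations is widest at A3245 (6.44% in mL, 36.5% in the deletion strain and 32.2% in BY4741), and at A3335 the pre-40S groups are the higher ones.

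As a description, the rank order of the 177 sites was nearly the same in every mature library. Spearman's rho was 0.990 to 0.992 among deletion libraries and 0.977 to 0.990 between deletion and BY4741 libraries. It was 0.783 to 0.849 among mL libraries, 0.723 to 0.783 among WT libraries and 0.709 to 0.834 between mL and WT. Between WT and BY4741 libraries it was 0.743 to 0.840, which is no lower than among the WT libraries themselves. The sites share base composition, neighbours and the depth of their library, and the shallow pre-40S libraries carry the larger counting error.

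Most of the 177 sites followed the common pattern of A above C. Mean rates over 1% were reached by 69 of 100 A in mL, 62 in WT, 53 in the deletion strain and 40 in BY4741, and by 16, 16, 13 and 12 of 77 C in the same groups. In the rest of 25S the share of A over 1% was 67.6% in mL, 66.6% in WT, 46.1% in the deletion strain and 36.3% in BY4741, on 799 sites. Along the domain, the second of 5 near-equal stretches (25S 3073 to 3153) had the lowest median A in each of the 4 groups. This median was at 1.04 ± 0.199% in mL, 1.199 ± 0.369% in WT, 0.386 ± 0.0205% in the deletion strain and 0.301 ± 0.0386% in BY4741. In the other 4 stretches the median A of BY4741 was between 0.819 and 1.02%. The order does not hold for C, whose median in BY4741 was lowest in the last stretch (0.0811 ± 0.0101%, against 0.107 ± 0.0146% in the second), nor for the mean over A in mL and WT, which was lowest in the third.

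A minimum free energy fold of the domain VI sequence alone, computed with RNAfold at -125.8 kcal/mol, predicted 62 members unpaired and 115 paired. Of the 10 highest sites of BY4741 it left 9 unpaired, and A3218 was the paired one. The median A predicted unpaired (45 sites) was at 3.32 ± 0.460% in mL, 3.00 ± 0.771% in WT, 1.54 ± 0.179% in the deletion strain and 1.21 ± 0.139% in BY4741. The median A predicted paired (55 sites) was at 1.01 ± 0.243%, 0.855 ± 0.144%, 0.412 ± 0.0121% and 0.299 ± 0.0560% in the same groups. The fold is a prediction that leaves out proteins and the rest of the ribosome.

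The sarcin-ricin loop core, A3021 to C3034, holds 6 A and 2 C. A3027, the ricin target, was its highest site in mature ribosomes. It read 5.52, 2.94 and 5.63% in mL and 3.86, 5.26 and 5.73% in WT, against 6.95, 8.31 and 7.01% in the deletion strain and 5.70, 5.33 and 6.92% in BY4741. The mL and WT libraries overlapped with those of BY4741 there. A3029 had 6.23 ± 1.58% in mL and 3.78 ± 1.02% in WT, against 2.55 ± 0.119% in the deletion strain and 1.96 ± 0.368% in BY4741.

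A3024 was at 5.16 ± 3.23% in mL, 3.81 ± 2.05% in WT, 1.54 ± 0.170% in the deletion strain and 1.43 ± 0.342% in BY4741. The last 3 bases of the core, A3032, A3033 and C3034, were at 3.01, 3.99 and 3.50% in mL and 3.43, 4.88 and 6.41% in WT. In the deletion strain they were at 1.31, 2.00 and 1.94%, and in BY4741 at 1.02, 1.51 and 1.45%. C3025 was the least reactive site of the core in mL, the deletion strain and BY4741, but not in WT. It read 0.375 ± 0.365% in treated mL and 1.79 ± 1.90% in treated WT libraries, where A3021 was lower at 0.971 ± 0.176%. In mature ribosomes it read 0.0776 ± 0.00998% in treated and 0.0660 ± 0.0183% in untreated deletion libraries, and 0.0820 ± 0.0169% in treated and 0.0651 ± 0.0117% in untreated BY4741 libraries. The outer A3021 stayed between 0.780 and 1.54% in the 4 treated groups. Mean rates over 3% were reached by 6 of the 8 sites in mL and in WT, and by A3027 alone in the deletion strain and in BY4741. This rise of raw rates is not particular to the loop. In the rest of 25S the median A was 1.78 ± 0.0485% in mL and 1.58 ± 0.344% in WT. It was 0.912 ± 0.0839% in the deletion strain and 0.701 ± 0.102% in BY4741 there.

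**Figure D3:**
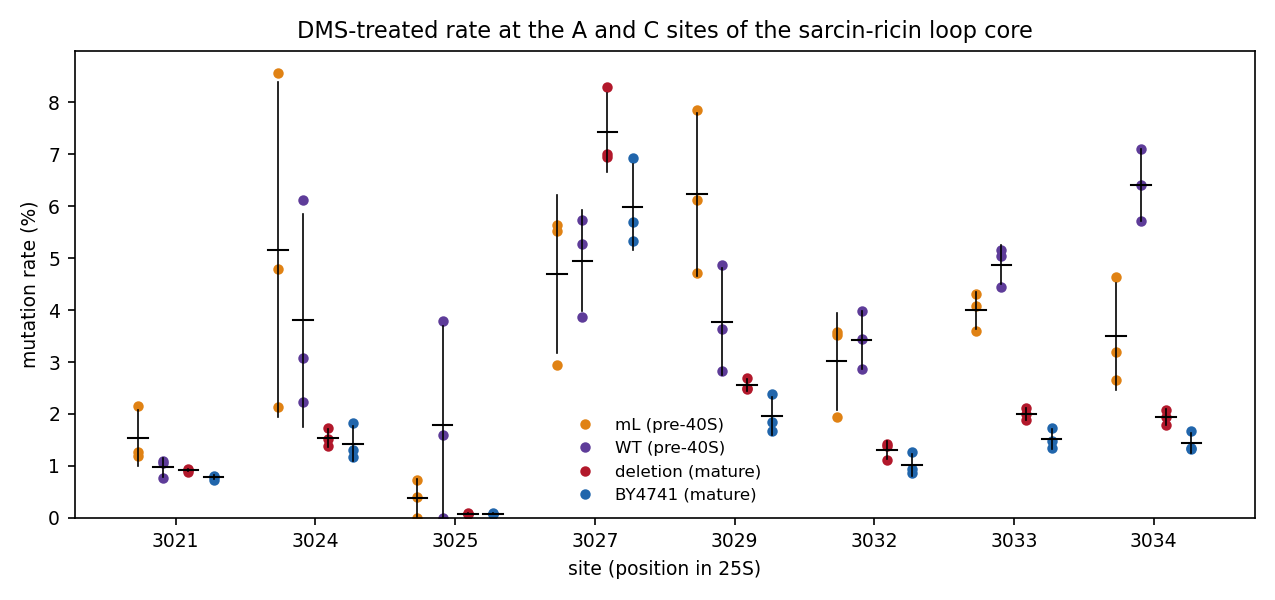
DMS-treated mutation rate in percent at the 8 A and C sites of the sarcin-ricin loop core, labelled by 25S position. Points are libraries, horizontal bars the means and vertical lines the SD (n = 3). At A3027 the group means lie between 4.70 and 7.42%, and at C3034 they are 3.50 and 6.41% in mL and WT and 1.94 and 1.45% in the deletion strain and BY4741.

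The effect of DMS itself was tested within each preparation with edgeR's quasi-likelihood test on mutation counts, with depth as offset and Benjamini-Hochberg adjustment over all sites of RDN37 that had at least 30 mutations over the 6 libraries. An adjusted p under 0.05 made a call. In the deletion strain 135 of 177 members were higher with DMS, 100 of 100 A and 35 of 77 C, where 80.9% of all A and C tested were. In BY4741 there were 132 of 177, 100 of 100 A and 32 of 77 C, where 77.9% of all A and C tested were. The strains shared 131 of these members.

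Over the A sites the median DMS effect was a log2 change of 5.33 in the deletion strain and 4.79 in BY4741. Over the C sites it was 0.40 in the deletion strain and 0.42 in BY4741. A3006 gave the largest effect in both, with a log2 change of 9.47 (SE 0.42, adjusted p = 3.02e-13) in the deletion strain and 7.87 (SE 0.38, adjusted p = 6.65e-09) in BY4741. In the deletion strain 3 C fell with DMS by the same test, where 1.83% of all A and C tested did. C3240 read 0.0624 ± 0.00823% with and 0.133 ± 0.0177% without DMS (log2 change -1.12, adjusted p = 3.74e-05). C3249 (log2 change -0.96) and C3060 (-0.43) were the others, all at rates of 0.2% or less, and in BY4741 no C was called lower.

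In pre-40S preparations the minimum of 30 mutations left 46 members to test in mL and 24 in WT. By edgeR 45 of the 46 were higher with DMS in mL, where 90.6% of all A and C tested were, and 24 of 24 in WT, where 87.9% were. A member passed the minimum of mutations mostly through its treated counts, so nothing is read from the numbers called. The numbers called were 21 without mL replicate 2 or mL replicate 3, and 10, 9 and 14 without WT replicate 1, 2 or 3. Fewer members reached the minimum of mutations there. A3375 was the member not called in mL, at 3.56 ± 1.31% with and 2.75 ± 0.723% without DMS.

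The effect of the Rrp5_mL form on treated 25S was tested at 67 members, those whose 6 libraries together held 30 or more mutations and whose mean rate with DMS was 2 or more times that without. Each library was scaled by the median ratio of its rate to the geometric mean rate of the 6 libraries. The median was taken over the tested sites of RDN37 that were mutated in all 6. This scaling shifted mL against WT by 0.18 on the log2 scale, so a change is relative to the typical site. A3336 alone was called. It was higher in mL, with a log2 change of 1.03 (SE 0.21), a 2.05-fold difference, and an edgeR adjusted p of 0.000584 over 1124 sites, of which 0.267% were called. All 3 mL libraries lay above all 3 WT libraries.

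The call at A3336 was known from an earlier analysis of these data and is no independent evidence. Its log2 change ran between 0.86 and 1.25 over the alternatives tried. It was not called with DESeq2 (adjusted p = 0.0899), with limma (adjusted p = 0.630) or without mL replicate 3 (edgeR adjusted p = 0.278), the library with the highest rate. The counts behind it were 27 of 252, 76 of 561 and 74 of 398 reads in mL, and 29 of 563, 35 of 488 and 13 of 218 reads in WT.

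Of the other A and C within 10 nucleotides of A3336, A3330, A3335, A3342 and A3344 were tested and not called, and C3338 and A3339 had too few mutations to be tested. A3335, the base on its 5′ side, read 8.87, 11.5 and 6.67% in mL against 13.2, 10.1 and 10.96% in WT, with a log2 change of -0.54 (SE 0.20, edgeR adjusted p = 0.274). A3344 read 10.9 ± 2.23% in mL and 8.11 ± 2.32% in WT, and A3330 2.07 ± 0.482% in mL and 1.82 ± 0.9498% in WT. A3342 averaged 1.53 ± 1.07% in mL and 0.945 ± 0.894% in WT. The untested C3338 and A3339 were at 0.0759 and 0.253% in mL and 0.537 and 0.556% in WT.

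By edgeR, unadjusted p-values under 0.05 were found at 2 members higher in mL and 5 lower, where 7.92% of all tested sites passed. The scaled groups did not overlap at 12 of 67 members, 17.9%, against 12.2% of all tested sites. Among them A3307 read 7.27, 8.04 and 5.07% in mL against 0.503, 1.23 and 4.55% in WT (log2 change 1.79, SE 0.52, edgeR adjusted p = 0.0941). WT replicate 3 was close to the mL libraries there, and without it the adjusted p was 0.0163. C3034 of the sarcin-ricin loop read 2.65, 3.20 and 4.64% in mL against 7.11, 6.41 and 5.71% in WT (log2 change -1.05, SE 0.37, edgeR adjusted p = 0.263).

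A3375 overlapped between the groups, at 2.25, 4.87 and 3.56% in mL against 7.94, 4.23 and 7.78% in WT (log2 change -0.996, SE 0.28, edgeR adjusted p = 0.0941). It was called without WT replicate 2 (adjusted p = 0.00727) and without mL replicate 2 (adjusted p = 0.0453). A3006 had a log2 change of 0.62 (SE 0.32, adjusted p = 0.624), and A3027 one of -0.33 (SE 0.38, adjusted p = 0.897). With so few reads these values do not show that the preparations were alike.

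**Figure D4:**
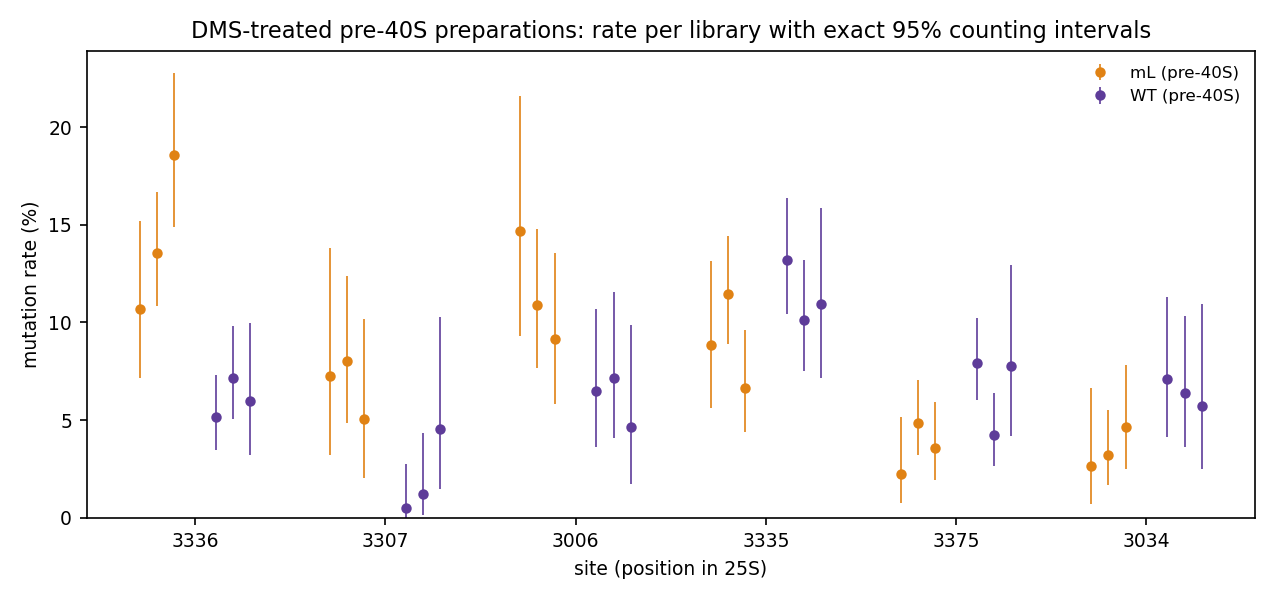
Mutation rate in percent of each treated pre-40S library at 6 sites, labelled by 25S position, mL left of WT, with exact 95% binomial intervals that cover counting error alone. At A3336 the mL libraries sit at 10.7 to 18.6% and the WT libraries at 5.15 to 7.17%, while at A3335 the groups overlap.

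Loss of snr31 and snr54 was tested in the same way at 131 members in treated mature ribosomes, and none was called by edgeR, where 0.0% of 1881 tested sites were. Unadjusted p-values under 0.05 were found at 5 members higher in the deletion strain and 10 lower, where 15.8% of all tested sites passed. DESeq2 called A3375 alone, where it called 8 of all 1881 tested sites higher and 8 lower, and limma called no member. The scaled groups did not overlap at 26 members, 19.8%, against 21.5% of all tested sites.

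Scaling mattered here. The raw rates were higher in the deletion strain by 0.40 on the log2 scale at the typical site, and without a library factor 127 of the 131 members (96.9%) had a positive change, against 93.6% of all tested sites. Under that setting 20 members (15.3%) were called, all higher, against 21.0% of all tested sites. With the factor 47 were positive, and with a factor from 18S sites alone 24. Relative to the typical site, A3375 had a log2 change of -0.43 (SE 0.11, edgeR adjusted p = 0.134) with raw rates of 1.38 ± 0.0982% in the deletion strain and 1.398 ± 0.112% in BY4741. C3217 had one of -0.30 (SE 0.07, adjusted p = 0.134). A3391, the last A of 25S, read 1.94, 2.26 and 1.79% in the deletion strain against 1.14, 1.06 and 1.56% in BY4741 (log2 change 0.28, SE 0.08, edgeR adjusted p = 0.190). A3372, A3210 and A3273 had log2 changes of 0.27, 0.29 and 0.33, and A3244, A3243 and A3218 of -0.23, -0.23 and -0.20, with edgeR adjusted p of 0.192 to 0.315.

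In the last 50 nucleotides the 8 A had a median of 2.41 ± 0.561% in mL, 2.34 ± 1.60% in WT, 1.60 ± 0.0683% in the deletion strain and 1.24 ± 0.223% in BY4741. Of the last 5 A or C, A3376 was the most reactive, at 4.43 ± 1.31% in mL, 3.33 ± 2.13% in WT, 2.65 ± 0.214% in the deletion strain and 1.88 ± 0.391% in BY4741. C3378 and C3379 stayed under 0.1% in both mature strains, and C3388 was at 0.3997 ± 0.0727% in the deletion strain and 0.294 ± 0.0633% in BY4741. The 3′ external transcribed spacer that follows was hardly read. Its first 50 nucleotides had a median depth of at most 0.0025 times that of the last 50 nucleotides of 25S in any library, and of 0 in all treated pre-40S libraries.

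The depth of domain VI over that of the rest of 25S was 1.13 ± 0.0969 in treated mL and 1.11 ± 0.0909 in treated WT libraries (exact permutation test, two-sided, p = 0.9). It was 1.24 ± 0.0582 in treated deletion and 1.44 ± 0.0913 in treated BY4741 libraries, where all 3 deletion values were lower (exact permutation p = 0.1, the smallest that 3 against 3 allows, and 0.4 after adjustment over 4 contrasts). With mean in place of median depth the sign of that difference turned. Untreated, the ratio was 1.05 ± 0.0540 in mL and 1.04 ± 0.0803 in WT (exact permutation p = 0.9), and 1.32 ± 0.0446 in the deletion strain and 1.18 ± 0.122 in BY4741 (exact permutation p = 0.2).

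Without DMS no member of the mature libraries had a mean rate over 1%, while 4 A and 2 C did in mL and 3 A and 2 C in WT. A3335 read 4.36, 6.20 and 2.20% in untreated mL libraries and 2.30, 8.05 and 3.31% in untreated WT libraries. In untreated mature libraries it read 0.559, 0.232 and 0.340% in the deletion strain and 0.0969, 1.02 and 0.312% in BY4741. A3375 read 2.73, 3.48 and 2.04% in mL and 0, 3.00 and 2.65% in WT, and 0.140 ± 0.0445% in the deletion strain and 0.216 ± 0.239% in BY4741. The base on the 3′ side of each was low: A3336 was at 0.113 ± 0.107% in mL and 0.0676 ± 0.117% in WT, and A3376 at 0.181 ± 0.211% in mL and 0 in all WT libraries.

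Part of the treated rate at A3335 and A3375 in pre-40S preparations was thus present without DMS. With DMS A3335 rose by a log2 change of 1.16 (SE 0.31, edgeR adjusted p = 0.000279) in mL and 1.12 (SE 0.44, adjusted p = 0.0146) in WT. Next in untreated pre-40S libraries were A3122 (1.13 ± 0.282% in mL, 1.70 ± 1.23% in WT) and C3001 (1.47 ± 0.828% in mL, 1.86 ± 1.74% in WT). A3035 averaged 1.91 ± 2.68% in mL through the 5.00% of replicate 2 alone, and C3143 1.08 ± 1.33% in WT. At A3122 and C3143 untreated WT replicate 1 had a depth under 50. In untreated mature libraries C3081 followed A3335, at 0.279 ± 0.0412% in the deletion strain and 0.256 ± 0.0486% in BY4741.

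**Figure D5:**
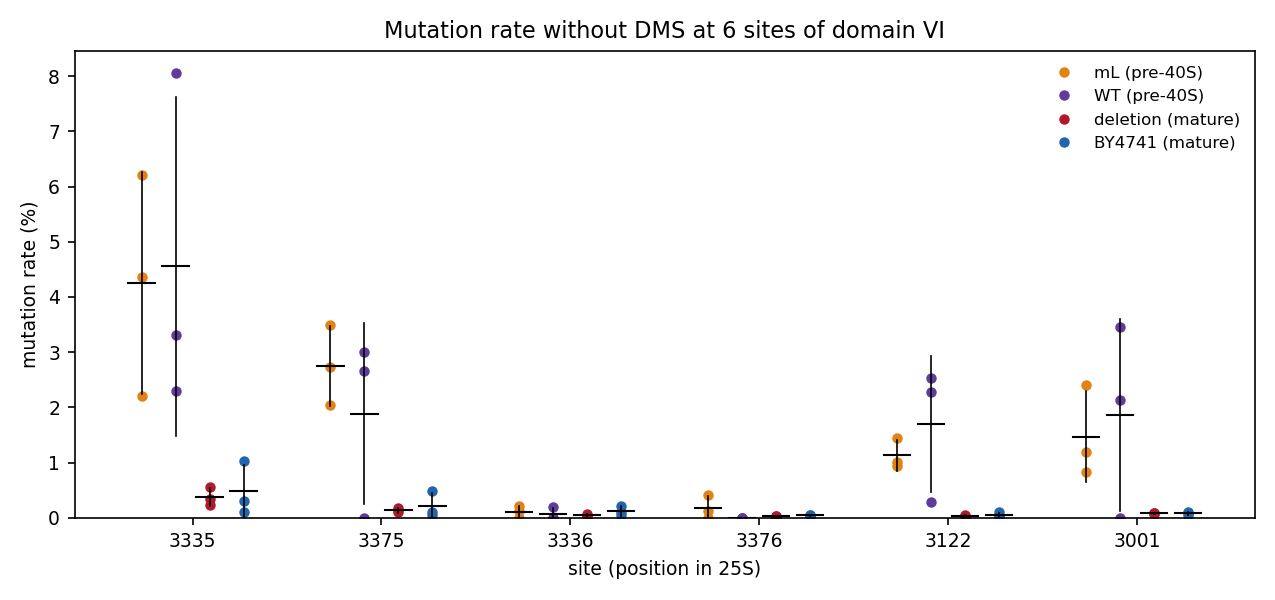
Mutation rate in percent without DMS at 6 sites, labelled by 25S position, with mL and WT left of the deletion strain and BY4741. Points are libraries, horizontal bars the means and vertical lines the SD (n = 3). At A3335 the means are 4.25% in mL and 4.56% in WT, and at the adjacent A3336 all 4 groups are under 0.2%. At A3122 untreated WT replicate 1 had a depth under 50.

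Untreated libraries differed between strains at no member by edgeR. Only A3335 and A3375 could be tested between mL and WT, with log2 changes of -0.10 (SE 0.58) and 0.27 (SE 0.66), and neither passed at an unadjusted p under 0.05 or with DESeq2 or limma. Of all 213 tested sites edgeR called 2.82%, and 16.0% passed unadjusted. Between the deletion strain and BY4741 all 177 were tested and 0 were called, where edgeR called 0.0% of 5306. Unadjusted p-values under 0.05 were found at 4 members higher in the deletion strain and 5 lower, 5.08% of the members against 3.35% of all tested sites, and DESeq2 and limma called none.

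The strain by DMS interaction tests whether the DMS effect itself differed. In mature ribosomes edgeR called none of 177 members, where 0.0405% of all sites tested were called. Unadjusted p-values under 0.05 were found at 28 members in the positive and 5 in the negative direction, 18.6% of the members against 18.7% of all tested sites. That fit has no library factor, and the median over all sites was 0.39 on the log2 scale. With a factor within treated and untreated libraries the split turned to 8 positive and 28 negative. Also without the factor, limma called none and DESeq2 called 4 members (2.26%), all with a larger effect in the deletion strain, against 2.27% of all tested sites. With the factor edgeR called 2 members, both with a smaller effect in the deletion strain, against 0.608% of all tested sites called in that direction. Without the factor the interaction at A3336 was 1.86 on the log2 scale (SE 0.62, edgeR adjusted p = 0.173). That at A3006 was 1.56 (SE 0.53, edgeR adjusted p = 0.190), and it was called in 2 of 20 settings. In pre-40S preparations edgeR called none of 45 members, where 1.29% of all sites tested were. Unadjusted p-values under 0.05 were found at 2 of the 45, against 8.52% of all tested sites, and DESeq2 and limma called none. The smallest SE there was 0.46 (A3335). A3336 had an interaction of 0.47 (edgeR unadjusted p = 0.904). A3070, with an untreated rate of 0 in mL and WT, had one of 0.67 (edgeR unadjusted p = 0.9997). At sites with almost no untreated mutations the SE computed here is no measure of uncertainty, so none is given. With so few untreated mutations these values do not show that the DMS effects were alike.

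Co-purified 25S of WT and 25S of mature BY4741 ribosomes were compared at 142 members. Particle, strain and experiment cannot be told apart in this contrast. In bulk RNA a lower rate at every copy and a low rate in a share of the copies cannot be told apart either. Relative to the typical site edgeR called 7 members higher in WT, where 12.8% of all tested sites were, and 23 lower, where 17.1% were. The scaling moved WT against BY4741 by 1.37 on the log2 scale. Without it 55 members were called higher and 6 lower (38.7 and 4.23%, against 45.4 and 4.39% of all tested sites). With a factor from 18S sites 2 were higher and 39 lower (1.41 and 27.5%, against 7.01 and 28.2% of all tested sites), so the split has no fixed direction.

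The alternatives were run for 11 sites in this contrast, and 6 of these kept their direction and their call in all 16 settings. A3245 was lower in WT with a log2 change of -3.81 (SE 0.19, edgeR adjusted p = 1.90e-14), and its change ran between -4.29 and -2.43. A3006 was lower by -3.23 (SE 0.22, adjusted p = 1.23e-11), A3336 by -2.68 (SE 0.18, adjusted p = 9.98e-12) and A3218 by -2.85 (SE 0.25, adjusted p = 1.62e-09). C3117 was lower by -3.90 (SE 0.59, adjusted p = 9.85e-06), with raw rates of 0.303 ± 0.287% in WT and 1.46 ± 0.0918% in BY4741.

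A3087 was higher in WT, at 1.34 ± 0.347% against 0.173 ± 0.0226% in BY4741 (log2 change 1.54, SE 0.41, edgeR adjusted p = 0.00524), and was the other one. C3025 of the sarcin-ricin loop had a log2 change of 2.91 (SE 0.83, edgeR adjusted p = 0.00807) with 1.59, 0 and 3.79% in WT, so its call rests on 2 libraries. C3298, C3093 and A3375 were higher by 1.53, 1.05 and 0.94, and each lost its call in at least 2 settings. A3027 was lower relative to the typical site by -1.65 (SE 0.23, adjusted p = 2.19e-06), while its raw rates were 4.95 ± 0.973% in WT and 5.98 ± 0.832% in BY4741, and without a library factor it was not called (log2 change -0.30, adjusted p = 0.464).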

How the data were processed

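DMS-MaPseq profiles of 24 libraries were used, 3 biological replicates in each of 8 groups. Per the file headers, each deposited profile holds, for the 6858 nucleotides of RDN37, counts of mutations and of covering reads (effective depth) and their quotient as a fraction. Reads were single-end of 100 bp per the labels' protocols, and Bowtie2 is named in the submitters' processing notes. The sources used here name no mutation counter and no genome build. Recomputed, the deposited fraction equals count over depth within 5e-07, and columns for controls inside a file have a depth of 0.

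Counts were tested with edgeR 4.0.16 in R 4.3.3 (quasi-likelihood, offset log depth and, between strains, a median library factor), fitted over RDN37 and adjusted by Benjamini-Hochberg. Alternatives were DESeq2 1.42.0, limma 3.58.1 on log2 rates (0.5 mutations added), minimums of 10 mutations or none, other depth minimums and factors, the replicate block and leaving out each library. The SE is the size of the change over the square root of F. It is no measure of uncertainty in the interaction at sites with almost no untreated mutations. Tests were checked on simulated counts with known 2-fold changes. Each library was simulated from rates pooled over all libraries of the fit, with a fixed dispersion in place of the real replicate spread. For the DMS effect and the interaction, untreated libraries thus shared the pooled rate of treated ones. The recovered shares are therefore not the power of the tests on the real counts. Of these, 99.0% were recovered for treated deletion against BY4741, 29.0% for treated mL against WT and 15.5% for WT against BY4741. Recovery was 86.0% for the DMS effect in BY4741, 41.6% for that in WT and 76.0% for the mature interaction. The false share of calls was highest for the DMS effect in BY4741, at 7.0%. Pairing was predicted with ViennaRNA 2.7.2.

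The members, the named sites and the lists were chosen with earlier results of these data known. Named are the 10 highest sites of BY4741, the sarcin-ricin loop core, called members and the 5 largest changes each way at p under 0.05 without overlap, neighbours within 10 nucleotides, the 5 highest untreated sites, the last 5 A or C, the same for WT against BY4741, and A3336.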

Additional observations from a re-analysis of the deposited data

Results flagged for a closer look

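DMS is read at A and C, so G and U of domain VI lay outside the comparisons, yet some were higher with DMS by edgeR at an adjusted p under 0.05. In the deletion strain these were 11 G of 109 tested and 30 U of 120 tested. In BY4741 they were 5 G of 109 and 32 U of 120, and in mL 1 G. Such calls were not confined to domain VI. In the deletion strain 2381 of all 5324 tested sites of RDN37 were higher, of which 1993 were among the 2465 A and C. In BY4741 2218 of 5328 were higher, of which 1923 were among the 2467 A and C. In mL 737 of 933 were higher, of which 727 were among the 802 A and C. U3275 was the highest, at 3.60 ± 0.442% with and 0.0278 ± 0.0104% without DMS in the deletion strain, and 3.81 ± 0.317% with and 0.0296 ± 0.00775% without in BY4741 (SD, n = 3). G3369 was the highest G, at 1.19 ± 0.0673% with and 0.314 ± 0.0536% without DMS in the deletion strain, and 1.26 ± 0.122% with and 0.341 ± 0.0477% without in BY4741. Lower with DMS were 17 G and 3 U in the deletion strain and 1 G in BY4741, and 4 of 4 U tested in mL. Over all tested sites of RDN37 257 were lower in the deletion strain, 39 in BY4741 and 39 in mL, of which 45, 6 and 11 were A or C.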

How the results depend on the processing

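Of the values that answer a comparison, 196 recomputed values stayed close to the reported one and 27 moved. Of those for single sites, 488 kept direction and side of the threshold, 11 gained a call, 15 lost one and 7 turned sign. Members higher with DMS numbered 79 in mL and 46 in WT at a minimum of 10 mutations, and 84 in mL and 49 in WT with no minimum, where more members were tested. They ran between 21 and 45 in mL and between 9 and 24 in WT when 1 library was left out. Between mL and WT the calls were 0 with DESeq2, 0 with limma, 2 without the filter against untreated libraries (A3336 and A3307), and 0 to 2 with 1 library left out. Without that filter 4 of all 1194 tested sites were called higher and 13 lower. Between the deletion strain and BY4741 the calls were 1 with DESeq2 and 20 with no library factor. Of all 1881 tested sites DESeq2 called 8 higher and 8 lower there, and with no library factor 395 were called higher and 6 lower. The mature interaction gave 4 with DESeq2, 2 (C3076 and C3118, both lower) with a factor within treated and untreated libraries, and 0 to 2 with 1 library left out. WT against BY4741 gave 61 with no library factor, where 899 of all 1982 tested sites were called higher and 87 lower. The cause of these moves was not tested, apart from the number of members tested.

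With no library factor 6 log2 changes between the deletion strain and BY4741 turned positive, C3217 to 0.092, A3244 to 0.17, A3243 to 0.16, A3218 to 0.20, A3336 to 0.32 and A3027 to 0.31. That of A3336 ran between -0.13 and 0.00103 with 1 library left out. With mean depth the differences of the spacer ratio were -0.00139 (mL minus WT, treated) and -1.61e-05 (deletion minus BY4741, treated), and that of the domain VI ratio 0.0652 (deletion minus BY4741, treated). Against the 300 nucleotides before domain VI the untreated difference of deletion minus BY4741 was 0.0147.

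Same-numbered libraries correlated at 0.020 to 0.044 between treated mL and WT, over 1124 sites, and below 0 between treated deletion and BY4741, over 1881 sites. This measure is not the rank correlation of site rates given above. The numbers were not taken to pair the samples. With a replicate block the calls were 134 for DMS in the deletion strain, 134 in BY4741, 45 in mL, 22 in WT, 1 for mL against WT, and 0 in the other strain contrasts and both interactions. Among treated mL and WT libraries 3 of 3 pairs correlated best with their own number, a hint from the data alone. A depth minimum of 100 left no member to test for DMS in WT, for untreated mL against WT or for the pre-40S interaction. The depth of pre-40S libraries limits what can be detected there.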

Other observations

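A3335 and A3375, the A sites of domain VI with the highest rates without DMS in pre-40S preparations, are both the first base of AAGC. The motif was chosen after these values were seen, was searched on the transcript's own strand, and its occurrences are not independent of each other in base composition. Domain VI holds it 3 times, and the rest of 25S 18 times. At the third place in domain VI, A3086, the untreated rate was 0 in mL and 0.0394% in WT. Over the 18 first A in the rest of 25S the median untreated rate was 4.34% in mL and 4.25% in WT, against 0.0826% in mL and 0.0518% in WT over all 799 A. Of these 18, 14 in mL and 13 in WT were over 1%, against 51 and 60 of the 799 A. The second A of the motif had a median of 0.0704% in mL and 0 in WT. In untreated mature libraries the first A had a median of 0.175% in the deletion strain and 0.237% in BY4741. These values are a description, with no test.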
